A study of Mus musculus with 6 samples.

Results

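The mitochondrial carriers of the Slc25 family were examined as 43 genes of the 15282 listed in one comparison of mouse dendritic cells. They were chosen by symbol, as every listed gene named Slc25a and a number other than Slc25a20. The rule used no measured value, but earlier results of these data were known when the family was chosen. Slc25a21, Slc25a48 and Slc25a54 had no row under these symbols and were not analysed here. The 6 libraries came from wild type C57/BL6 mouse cells, 3 per group. For maDC, bone marrow cells were grown for 6 days with GM-CSF and IL-4, given the bacterial product LPS for 24 hours, and purified by magnetic beads for CD11c, an integrin of dendritic cells. For diffDC, cells prepared in that same way, LPS included, then spent 9 days on spleen stromal cells. The series title calls such cells regulatory and tolerogenic dendritic cells. The table gave 1 pooled read number per gene and group and no value per library, so no difference below has a replicate check, and the number of mice is not stated in the labels.

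Slc25 proteins span the inner mitochondrial membrane, with a few in peroxisomes or the outer membrane, and exchange metabolites between the cytosol and the mitochondrial matrix. Each has a fold built of repeated pairs of membrane helices. They pass ADP against ATP and import phosphate, they let citrate, malate, glutamate and aspartate cross, and they supply the matrix with NAD, coenzyme A, folate, nucleotides and iron. In dendritic cells and macrophages stimulated with LPS, citrate export to the cytosol is known to feed fatty acid synthesis and other products made from acetyl-CoA.

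The pools held 69190437 reads in maDC and 89836110 in diffDC. Ratios are diffDC over maDC after TMM scaling, a library correction taken from the bulk of the genes, and intervals are exact 95% intervals for counting error in the pooled reads. Calls required a ratio of at least 2-fold, up or down, with an interval that excluded no difference, and over all genes 23.3% were called higher and 21.0% lower. Scaled CPM are reads as a share of the scaled library. Of 8 dendritic cell markers 7 were called lower, or 6 with the library factor implied by the authors' deposited ratios. Their summed level went from 9998 to 780 scaled CPM. However, Itgax, which encodes CD11c, had a log2 ratio of -0.21, or 0.23 with that factor, and was not called. All 8 macrophage markers were called higher, from 1316 to 14259 in sum. Of 12 fibroblast and reticular stroma markers 8 were called higher and 2 lower, from 16.1 to 658 in sum, and none was at 0 in either pool. All 10 cell cycle genes were called higher, from 321 to 1441. Of 5 listed endothelial markers 4 were called lower, and of 5 erythroid markers 1 was higher and 3 were lower and listed at 0 in diffDC. The part of these marker changes in any carrier difference was not tested. In pooled samples, fewer cells of a type and less RNA per cell cannot be told apart.

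The sequences upstream of 6 carriers are shown because these genes carry the main contrasts: Slc25a23 and Slc25a29 had the largest ratios up and down among carriers with at least 100 reads in a pool, and Slc25a24 with Slc25a25, and Slc25a12 with Slc25a13, are close relatives with different ratios. Each line gives the 250 bases before the RefSeq start farthest upstream, on build GRCm38.p6, 5′ to 3′. Capitals mark every match, on either strand, to any of 5 motifs. These are the CCAAT box, the GC box with the letters GGGCGG, the E-box with the letters CACGTG, the cAMP response element with the letters TGACGTCA, and a nuclear receptor motif with the letters AAGGTCA.
Slc25a23, chr17:57059864-57060113, minus strand: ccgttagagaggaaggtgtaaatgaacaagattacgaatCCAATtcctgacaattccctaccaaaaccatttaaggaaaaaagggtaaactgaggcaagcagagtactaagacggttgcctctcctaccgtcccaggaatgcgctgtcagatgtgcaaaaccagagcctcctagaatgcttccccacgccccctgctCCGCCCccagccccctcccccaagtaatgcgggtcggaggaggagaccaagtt
Slc25a24, chr3:109122899-109123148, plus strand: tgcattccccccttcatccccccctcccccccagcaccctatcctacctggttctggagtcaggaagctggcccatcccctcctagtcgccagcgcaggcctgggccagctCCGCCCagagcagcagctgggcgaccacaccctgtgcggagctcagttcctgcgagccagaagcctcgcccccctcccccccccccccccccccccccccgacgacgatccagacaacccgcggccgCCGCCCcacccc
Slc25a25, chr2:32451471-32451720, minus strand: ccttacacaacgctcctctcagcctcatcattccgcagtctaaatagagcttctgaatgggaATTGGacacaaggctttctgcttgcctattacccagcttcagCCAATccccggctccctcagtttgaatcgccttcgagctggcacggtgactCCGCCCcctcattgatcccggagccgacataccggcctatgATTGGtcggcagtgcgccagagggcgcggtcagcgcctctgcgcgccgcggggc
Slc25a12, chr2:71367756-71368005, minus strand: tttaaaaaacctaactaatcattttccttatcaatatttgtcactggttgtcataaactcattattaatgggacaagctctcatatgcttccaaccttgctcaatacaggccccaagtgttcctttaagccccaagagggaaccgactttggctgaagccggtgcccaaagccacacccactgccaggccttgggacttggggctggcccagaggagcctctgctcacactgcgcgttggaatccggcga
Slc25a13, chr6:6217174-6217423, minus strand: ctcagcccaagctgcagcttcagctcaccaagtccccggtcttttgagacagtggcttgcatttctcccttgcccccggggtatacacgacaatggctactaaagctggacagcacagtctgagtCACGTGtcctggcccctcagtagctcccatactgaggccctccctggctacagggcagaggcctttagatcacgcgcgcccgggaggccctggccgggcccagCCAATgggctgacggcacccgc
Slc25a29, chr12:108835877-108836126, minus strand: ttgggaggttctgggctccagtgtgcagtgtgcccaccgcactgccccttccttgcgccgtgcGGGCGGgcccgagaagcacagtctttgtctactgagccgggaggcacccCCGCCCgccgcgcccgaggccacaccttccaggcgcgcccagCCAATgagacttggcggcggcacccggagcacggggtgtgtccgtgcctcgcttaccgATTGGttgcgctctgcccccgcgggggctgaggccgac

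A GC box was found in the windows of Slc25a23, Slc25a24, Slc25a25 and Slc25a29, and a CCAAT box in those of Slc25a23, Slc25a25, Slc25a13 and Slc25a29. The window of Slc25a13 also held 1 E-box, and that of Slc25a12 held none of the 5 motifs. The window of Slc25a29 ends at 108836126 and takes in the start of the plus-strand gene Slc25a47, at 108836046. RefSeq windows were matched for 32 of the 43 carriers. Of these, 22 held a GC box (68.8%, against 33% of 27025 gene windows of the same length), 15 a CCAAT box (46.9% against 34.5%) and 6 an E-box (18.8% against 6.04%). The cAMP response element was in 1 carrier (3.13% against 1.60%) and the nuclear receptor motif in 1 (3.13% against 4.04%). The carriers' windows were also richer in G and C, with a median of 59.8% against 52.0%. The 27025 windows were not limited to genes listed in this comparison, so these percentages set listed carriers against an unlike set. Among carriers called higher, 4 of 7 windows held a GC box, and among those called lower, 5 of 7. These are matches of letters and describe the windows alone.

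**Figure D1:**
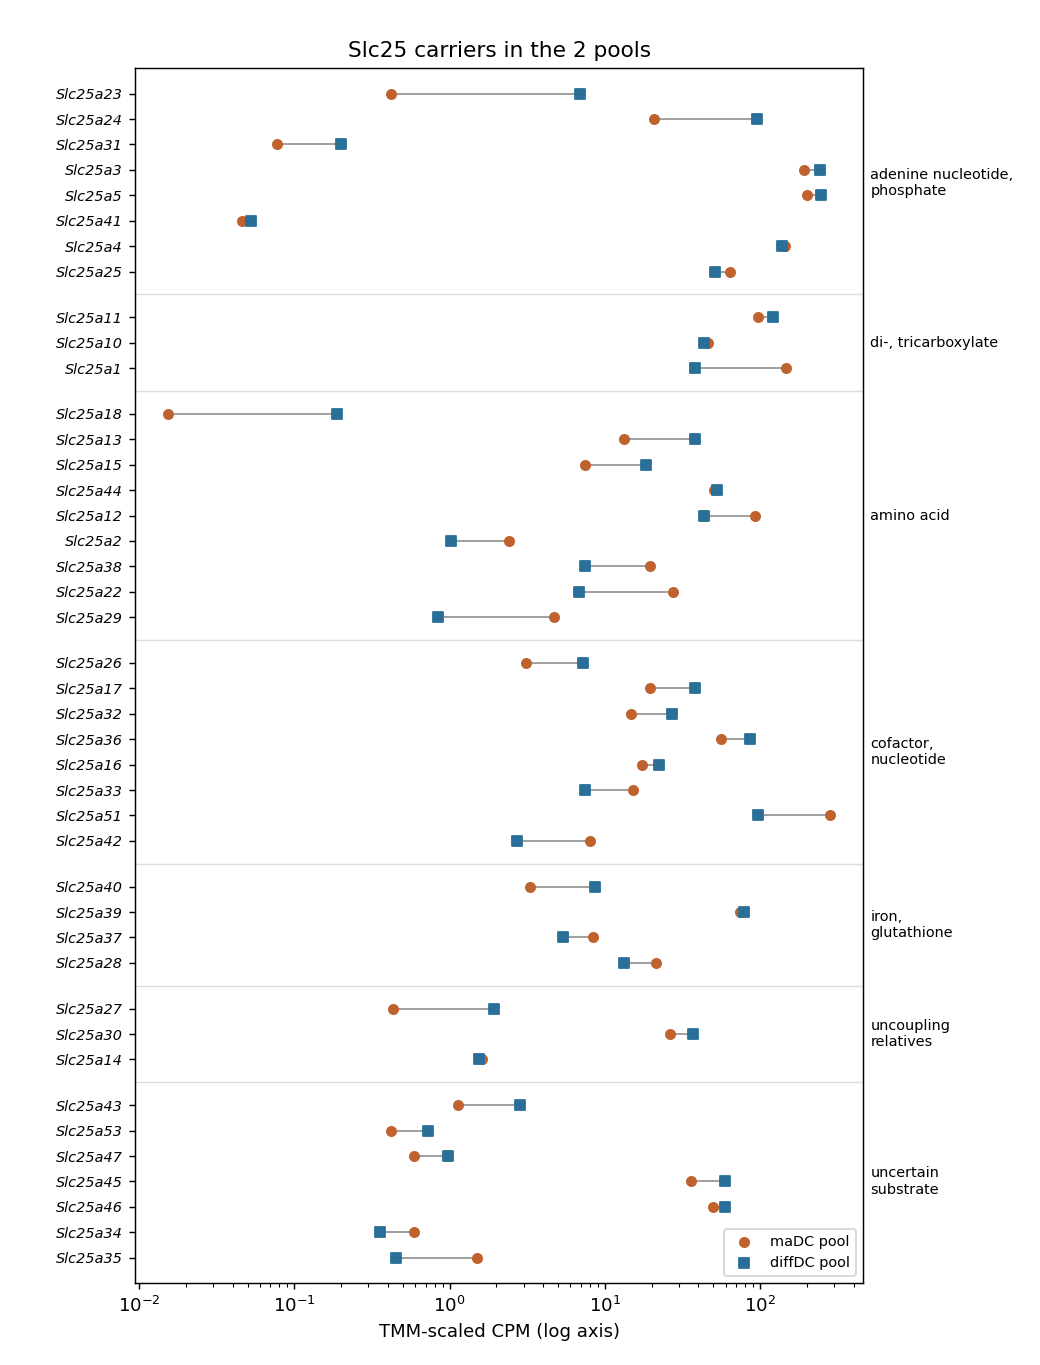
Scaled CPM (log axis) for 42 of the 43 carriers in the maDC pool (circles) and the diffDC pool (squares), grouped by what they carry. The points are single pooled values without error bars, and the widest gaps are those of Slc25a23 and Slc25a18.

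As a family the carriers took similar shares of both pools, 116393 reads or 0.168% in maDC and 165686 reads or 0.184% in diffDC. After scaling, these were 1794 and 1729 scaled CPM. Every carrier had at least 1 read in each pool. Single members ranged from 1 to 18285 reads in maDC and from 5 to 23659 in diffDC, and 7 members stayed under 100 reads in both.

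Within that sum, 9 carriers were called higher and 10 lower. That is 20.9% and 23.3% of the family. Over all genes 23.3% were called higher and 21.0% lower, so the shares of called carriers were near the background. The median log2 ratio was 0.27 for the carriers and 0.03 for all genes. With the library factor implied by the authors' deposited log2 ratios, which raised every gene by 0.44, the split became 16 higher and 6 lower, against 32.2% and 15.7% of all genes. With plain library totals it was 12 higher and 8 lower, against 26.8% and 18.4%. At a 1.5-fold limit 29 carriers (67.4%) were called, 15 higher and 14 lower, against 59.2% of all genes. At a 3-fold limit 4 were higher and 4 lower, against 16.2% and 14.8%. Of the 30 carriers with a mean of at least 5 CPM, 5 were higher and 7 lower, against 20.8% and 16.8% of all genes at that level. The same 9 higher carriers and 6 of the 10 lower ones were called under all 4 scalings tried. Against TMM, the other scalings shifted every log2 ratio by 0.44, 0.19 and -0.02. Calls of higher could therefore hardly be lost, and the 2 counts do not compare how firm the calls were. The 9 were Slc25a13, Slc25a15, Slc25a18, Slc25a23, Slc25a24, Slc25a26, Slc25a27, Slc25a40 and Slc25a43. The 6 were Slc25a1, Slc25a22, Slc25a29, Slc25a35, Slc25a42 and Slc25a51.

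**Figure D2:**
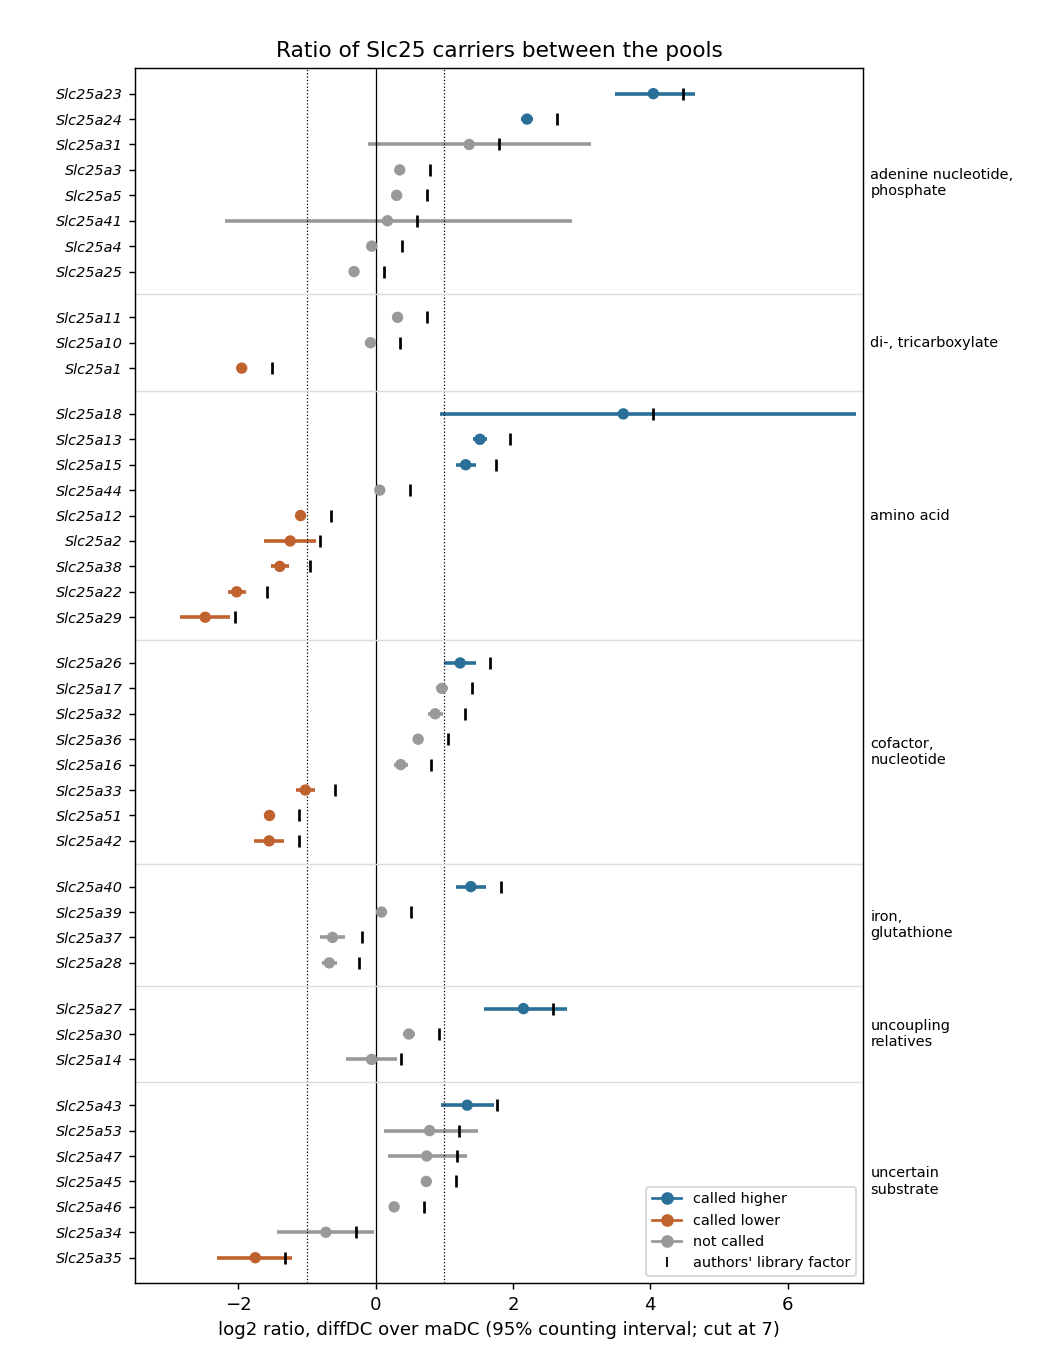
Log2 ratio of diffDC over maDC for 42 of the 43 carriers (points) with 95% counting intervals (bars), coloured by call, and the same ratio with the authors' library factor (black ticks). Dotted lines mark 2-fold; Slc25a23 stands at 4.04 and Slc25a29 at -2.48, and the upper end of the Slc25a18 interval lies beyond the axis.

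**Figure D3:**
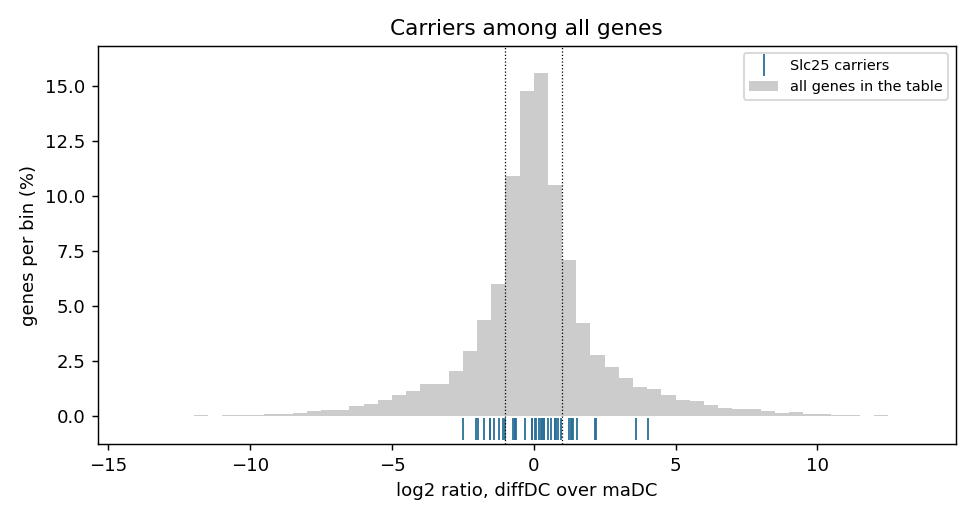
Distribution of the log2 ratios of all 15282 genes (grey bars, percent of genes per bin of 0.5) with the 43 carriers as ticks under it. The carriers run from -2.48 to 4.04 and lie within the spread of all genes.

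Levels of different carriers were compared as scaled CPM per kilobase of exon. The adenine nucleotide translocase Slc25a5 was the highest carrier in both pools, at 121 in maDC and 150 in diffDC. In maDC it was followed by the citrate carrier Slc25a1 at 67.5, the other main translocase Slc25a4 at 61.0 and the NAD carrier Slc25a51 at 51.2. In diffDC the next places went to Slc25a4 at 58.7, the oxoglutarate carrier Slc25a11 at 56.7 and the phosphate carrier Slc25a3 at 43.8. The 5 highest carriers held 62.4% of the family's level in maDC and 61.2% in diffDC. Slc25a1 went from rank 2 to rank 9 and Slc25a51 from rank 4 to rank 8, while Slc25a24 went from rank 18 to rank 6. With the gene lengths listed in the deposited table, Slc25a3 moved up to rank 3 in maDC and rank 2 in diffDC, and Slc25a1 went from rank 4 to rank 9.

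The main carriers that serve oxidative phosphorylation directly stayed under 2-fold. Slc25a5 went from 12948 reads in maDC to 23659 in diffDC. Its log2 ratio was 0.31 (interval 0.28 to 0.34), or 0.74 with the authors' library factor. Slc25a4 had 9309 and 13233 reads, a log2 ratio of -0.06, which became 0.38 with the authors' library factor. Slc25a3 had 12367 and 23322 reads, a log2 ratio of 0.35, or 0.79 with that factor. None of these reached 2-fold under any of the 4 scalings. The germ cell translocase Slc25a31 had 5 and 19 reads, too few for its interval (-0.11 to 3.14) to exclude no difference. It was called higher with library totals and with the authors' factor, at log2 ratios of 1.55 and 1.80.

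The calcium-regulated carriers of ATP-Mg and phosphate, which adjust the adenine nucleotide content of the matrix, differed among themselves. Slc25a23 had 27 reads in maDC and 658 in diffDC, 16.5-fold higher (interval 11.2 to 25.2), the largest ratio among all carriers. Its exons overlap on the other strand with those of the antisense gene Gm17168, and the labels do not say whether reads were counted by strand. Slc25a24 had 1342 and 9143 reads, 4.61-fold higher (interval 4.35 to 4.89). Slc25a25 had 4152 and 4937 reads, a log2 ratio of -0.31, or 0.12 with the authors' library factor, and was not called. Exons of Slc25a25 also overlap on the other strand, with those of Naif1, which had 434 and 431 reads. The fourth of the type, Slc25a41, had 3 and 5 reads. Slc25a24 and Slc25a25 exchanged order: Slc25a25 led in maDC with 8.14 against 6.03 scaled CPM per kilobase, and Slc25a24 led in diffDC with 27.8 against 6.55. The ratio of Slc25a24 to Slc25a25 was 5.73-fold higher in diffDC (interval 5.34 to 6.15), a value that needs neither a library factor nor a gene length. Slc25a24 held 42.3% of the level of Slc25a23, Slc25a24 and Slc25a25 in maDC and 78.0% in diffDC, or 24.4% and 62.2% with the listed lengths. Slc25a23 lies on chromosome 17 from 57043711 to 57059863 (GRCm38, minus strand), Slc25a24 on chromosome 3 from 109123149 to 109168457 (plus strand) and Slc25a25 on chromosome 2 from 32414487 to 32451445 (minus strand), all as protein coding genes.

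The citrate carrier stood apart from the other carriers of organic acids. Slc25a1, which exports citrate from the matrix in exchange for malate, had 9481 reads in maDC and 3627 in diffDC, 3.86-fold lower (interval 3.72 to 4.01). The gene lies on chromosome 16 from 17925223 to 17928219 (minus strand). Slc25a11, the oxoglutarate and malate carrier, had 6242 and 11513 reads, a log2 ratio of 0.32. The dicarboxylate carrier Slc25a10 had 2988 and 4194 reads, a log2 ratio of -0.07 that became 0.36 with the authors' library factor. Relative to Slc25a11, Slc25a1 was 4.82-fold lower in diffDC (interval 4.59 to 5.06). Exons of Slc25a11 overlap on the other strand with those of Rnf167, which had 3067 and 2542 reads. Slc25a1 held 53.5% of the level of Slc25a1, Slc25a10 and Slc25a11 in maDC and 20.1% in diffDC.

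Among amino acid carriers, relatives went in opposite directions. Slc25a12 and Slc25a13 are the calcium-regulated aspartate-glutamate carriers, aralar and citrin, that serve the malate-aspartate shuttle. Slc25a12 had 6024 reads in maDC and 4176 in diffDC, 2.13-fold lower (interval 2.05 to 2.22), close to the 2-fold limit. Slc25a13 had 866 and 3668 reads, 2.87-fold higher (interval 2.66 to 3.09). The ratio of Slc25a12 to Slc25a13 was 6.11-fold lower in diffDC (interval 5.62 to 6.64). Slc25a13 held 21.7% of the level of the pair in maDC and 62.9% in diffDC. With the listed lengths these shares were 12.3% and 46.1%, so which member led in diffDC depended on the length used. The summed level of the pair was 16.2 in maDC and 16 in diffDC, or 36 and 27.5 with the listed lengths. With library totals and with the authors' factor Slc25a12 had log2 ratios of -0.91 and -0.66 and was no longer called.

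The ornithine carriers gave the same picture at lower counts. Slc25a15, the main ornithine carrier of the urea cycle, had 482 reads in maDC and 1768 in diffDC, 2.48-fold higher (log2 interval 1.17 to 1.46). Its relative Slc25a2 had 157 and 98 reads, 2.37-fold lower (interval 1.83 to 3.08), but a log2 ratio of -0.81 and no call with the authors' library factor. The ratio of Slc25a2 to Slc25a15 was 5.88-fold lower in diffDC (interval 4.44 to 7.79). Slc25a29, which carries arginine, lysine and other basic amino acids, had 306 and 81 reads, 5.58-fold lower (interval 4.36 to 7.22), the largest ratio downward among the carriers. It lies on chromosome 12 from 108825873 to 108835883 (minus strand).

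The glutamate carriers differed between the pools. Slc25a22, which imports glutamate with a proton, had 1791 reads in maDC and 651 in diffDC, 4.06-fold lower (interval 3.71 to 4.45). Its relative Slc25a18 had 1 and 18 reads, 12.2-fold higher with an interval from 1.92 to 508, and made up 7.98% of the level of the pair in diffDC. Exons of Slc25a18 overlap on the other strand with those of Atp6v1e1, a proton pump gene with 11763 and 14057 reads. With the strand setting not known, reads of both genes cannot be told apart. Slc25a38, the glycine carrier needed for haem synthesis, had 1270 and 714 reads, 2.63-fold lower (interval 2.40 to 2.88), with a log2 ratio of -0.96 and no call under the authors' factor. The carrier of branched-chain amino acids, Slc25a44, had 3275 and 5047 reads, a log2 ratio of 0.06. In all, 3 of 9 amino acid carriers were called higher and 5 lower, against 23.3% and 21.0% of all genes. With the authors' factor 3 were higher and 2 lower, against 32.2% and 15.7%.

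**Figure D4:**
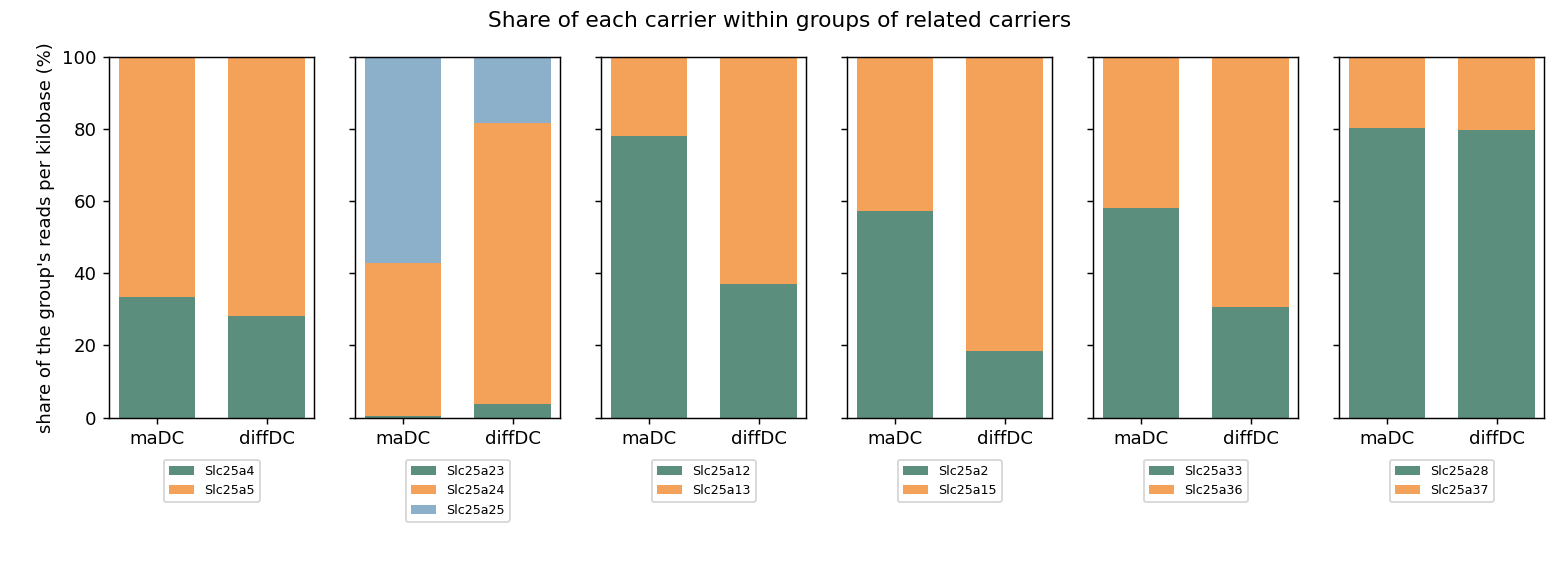
Share of each carrier in the summed level (scaled CPM per kilobase of exon) of 6 groups of related carriers, in maDC and diffDC. The share of Slc25a13 goes from 21.7% to 62.9% and that of Slc25a24 from 42.3% to 78.0%, while Slc25a28 stays at 80.3% and 79.8%; the shares depend on the gene lengths used.

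Of 9 carriers of cofactors and nucleotides 1 was called higher and 3 lower, against 23.3% and 21.0% of all genes. With the authors' factor 4 were higher and 2 lower, against 32.2% and 15.7% of all genes. With library totals 3 were higher and 2 lower, against 26.8% and 18.4%. Slc25a51, which brings NAD into the matrix, had the most reads of any carrier in maDC, 18285, and 9261 in diffDC, 2.92-fold lower (interval 2.84 to 2.99). It lies on chromosome 4 from 45395923 to 45408766 (minus strand), and its read numbers carried decimals, as in 15 of the 43 carriers, so shared reads could have been divided. Slc25a42, a coenzyme A carrier, had 517 and 261 reads, 2.93-fold lower (interval 2.52 to 3.41). Slc25a16, also linked to coenzyme A, had 1123 and 2139 reads, a log2 ratio of 0.37. The ratio of Slc25a16 to Slc25a42 was 3.77-fold higher in diffDC (interval 3.20 to 4.45).

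The pyrimidine nucleotide carriers also separated. Slc25a33 had 983 reads in maDC and 715 in diffDC, 2.03-fold lower (interval 1.84 to 2.24), just inside the limit and not called with library totals or the authors' factor, at -0.84 and -0.59. Slc25a36 had 3616 and 8209 reads, a log2 ratio of 0.62, which became 1.06 and a call with that factor. The ratio of Slc25a33 to Slc25a36 was 3.12-fold lower in diffDC (interval 2.81 to 3.46). Slc25a26, which imports S-adenosylmethionine, the methyl donor, had 201 and 697 reads, 2.35-fold higher, with an interval from the 2-fold limit to 2.76. Its exons overlap on the other strand with those of Lrig1, which had 92 and 782 reads. The peroxisomal carrier Slc25a17 and the folate and FAD carrier Slc25a32 lay just outside the limit, with log2 ratios of 0.97 and 0.87. Both passed it with library totals, at 1.15 and 1.05, and with the authors' factor, at 1.40 and 1.30.

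Iron carriers kept their proportions. Mitoferrin-2, Slc25a28, went from 1377 reads in maDC to 1275 in diffDC, with a log2 ratio of -0.67 (interval -0.79 to -0.56). Mitoferrin-1, Slc25a37, had 541 and 518 reads, a log2 ratio of -0.63 (interval -0.80 to -0.45). The ratio of Slc25a28 to Slc25a37 differed by 1.03-fold between the pools, with an interval from 0.90 to 1.19. Slc25a39, needed for glutathione import, had 4794 and 7519 reads, a log2 ratio of 0.09. Its close relative Slc25a40 had 214 and 827 reads, 2.62-fold higher (interval 2.25 to 3.05), and made up 3.49% of the level of that pair in diffDC.

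Of the relatives of uncoupling proteins, Slc25a27 had 28 reads in maDC and 184 in diffDC, 4.45-fold higher (interval 2.98 to 6.88). Slc25a30 had 1707 and 3529 reads, a log2 ratio of 0.48, and Slc25a14 had 105 and 149 reads, a log2 ratio of -0.06 that became 0.38 with the authors' factor. Among carriers whose substrate is uncertain, Slc25a43 had 73.2 and 272 reads, 2.52-fold higher (interval 1.94 to 3.31). Slc25a35 had 98 and 43 reads, 3.37-fold lower (interval 2.33 to 4.94), while Rangrf, whose exons overlap it on the other strand, had 46.6 and 207 reads. The outer membrane protein Slc25a46, linked to mitochondrial fusion and fission, had 3205 and 5710 reads, a log2 ratio of 0.27. Slc25a45, Slc25a47 and Slc25a53 had log2 ratios of 0.74, 0.74 and 0.79, and Slc25a34 of -0.72, and none was called. Reads were few for Slc25a47 (38 and 94), Slc25a53 (27.2 and 69.2) and Slc25a34 (38 and 34). With the authors' factor Slc25a45, Slc25a47 and Slc25a53 reached 1.17, 1.18 and 1.22 and were called higher.

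Proteins with the carrier fold that bear other symbols also differed among themselves. Ucp1, the heat-producing uncoupling protein of brown fat, had 121 reads in maDC and 10 in diffDC, 17.9-fold lower (interval 9.39 to 38.2). Ucp2, the uncoupling protein of immune cells, had 6487 and 17643 reads, a log2 ratio of 0.88 and no call, or 1.32 and a call with the authors' factor. The outer membrane protein Mtch1 had 3510 and 11292 reads, 2.18-fold higher (interval 2.10 to 2.26). Mtch2 had 3971 and 8093 reads, a log2 ratio of 0.46. Ucp3 had 5 and 5 reads, too few for its log2 interval (-2.68 to 1.56) to exclude no difference.

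Carriers reach the inner membrane through the TOM complex, small TIM chaperones and the TIM22 complex. The 14 genes listed for import also held Timm17a and Timm23, of the separate TIM23 complex, and neither was called. Of these 14 genes 6 were called higher and none lower, against 23.3% and 21.0% of all genes. Their median log2 ratio was 0.50, against 0.03 over all genes. Tomm20, a TOM receptor, had 3015 reads in maDC and 13097 in diffDC, 2.94-fold higher (interval 2.83 to 3.06). Agk, a lipid kinase that is also a TIM22 subunit, had 639 and 2369 reads, 2.51-fold higher (interval 2.30 to 2.74). Tomm70a, the TOM receptor that binds carrier precursors, had 8831 and 7923 reads, a log2 ratio of -0.72, and Timm22, the channel, had 712 and 1771 reads, a log2 ratio of 0.75, and neither was called. With the authors' factor Timm22 reached 1.19 and was called.

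Other mitochondrial transport proteins gave 6 genes higher and 2 lower of 22, near the background of 23.3% for higher and below the 21.0% for lower, with a median log2 ratio of 0.32. The sideroflexins Sfxn5 and Sfxn3 were 4.91-fold and 3.78-fold higher (intervals 4.43 to 5.47 and 3.51 to 4.08). Tspo, the outer membrane translocator protein, had 41227 reads in maDC and 10582 in diffDC, 5.76-fold lower (interval 5.63 to 5.88), and the sodium-calcium exchanger Slc8b1 was 2.21-fold lower (interval 2.15 to 2.28), a call lost with the authors' factor at a log2 ratio of -0.71. The mitochondrial pyruvate carrier subunits Mpc1 and Mpc2 had log2 ratios of -0.002 and 0.34. The porins Vdac1, Vdac2 and Vdac3 had log2 ratios of 0.32, 0.41 and -0.18. With the authors' factor the split of these 22 genes was 8 higher and 1 lower, against 32.2% and 15.7% of all genes. Among 14 genes of mitochondrial DNA upkeep and biogenesis, 1 was called higher and 2 lower, against 23.3% and 21.0% of all genes, with a median log2 ratio of 0.11. Ppargc1b, a coactivator of mitochondrial genes, had 2170 and 1210 reads, 2.65-fold lower (interval 2.47 to 2.85), but was not called with the authors' factor at a log2 ratio of -0.97. Tfb1m, a methyltransferase of mitochondrial ribosomal RNA, was 3.01-fold higher (interval 2.48 to 3.65). Ppargc1a, with 30.8 and 3.08 reads, was the other gene called lower. With the authors' factor 3 of the 14 were called higher and 1 lower, against 32.2% and 15.7% of all genes. Tfam, which packs mitochondrial DNA, had a log2 ratio of 0.04.

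**Figure D5:**
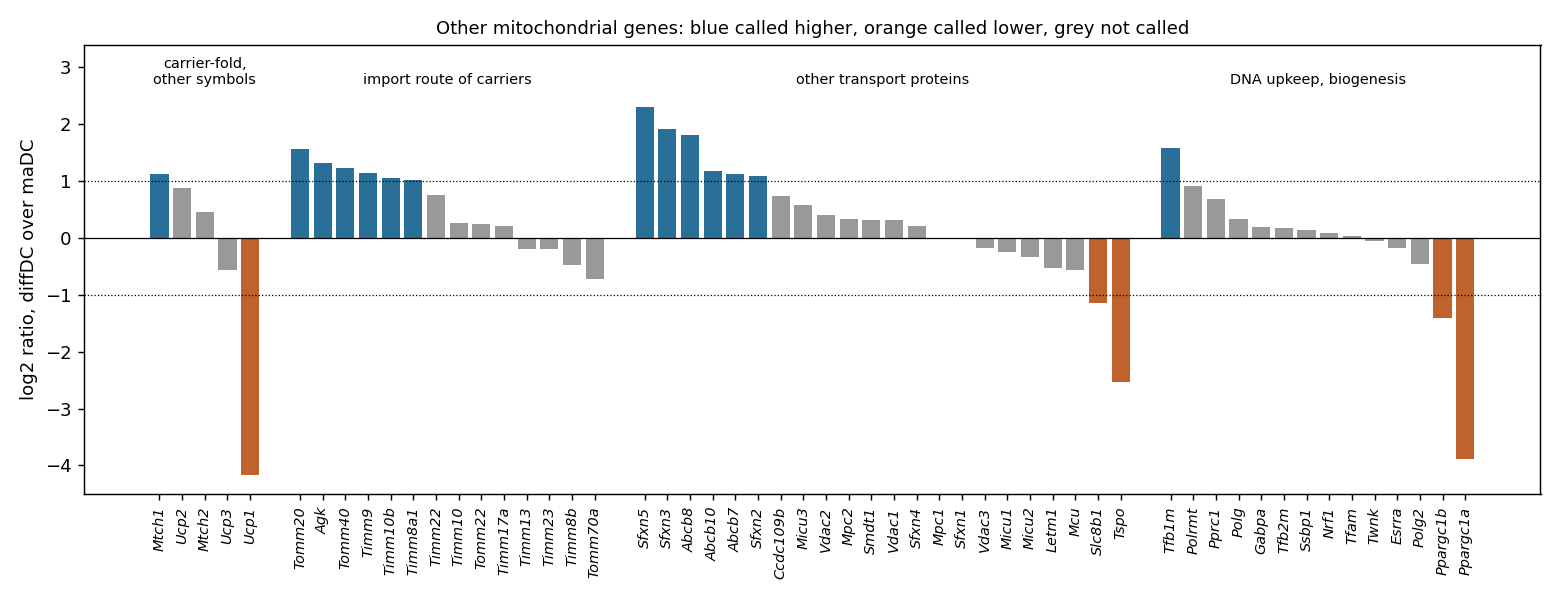
Log2 ratio of diffDC over maDC (bars, single pooled values) for the carrier-fold genes of other symbols and 3 further lists of mitochondrial genes, with dotted lines at 2-fold. In the import list 6 of 14 bars are called higher and none lower, where 23.3% and 21.0% of all genes were.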

How the data were processed

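RNA sequencing covered 3 maDC and 3 diffDC libraries. The authors' deposited table held 1 pooled expected count per gene and group, named read numbers per the file headers. Decimals stood in many values: 58.2% of maDC and 57.5% of diffDC values were whole within 0.005. Aligner, counter, strand setting and way of pooling are not given in the sources used here; the submitters' processing notes name GRCm38.p4 and mm10. The authors' deposited log2 ratios served for 1 alternative library factor, which fitted 14573 genes within 0.001 except 1 with a damaged cell.

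Read numbers were rounded for TMM scaling (edgeR 4.0.16, R 4.3.3) and for exact Clopper-Pearson 95% intervals (scipy 1.17.1, Python 3.11.15). Depth was 69190437 and 89836110 reads, and intervals cover counting error only. These intervals take each value as a sum of reads, and whether it is a sum is not known. A value of 0.5 stood for 0 reads. Ratios between related carriers, 18 pairs, have log-scale normal intervals, or exact ones under 3000 reads. Alternatives were library totals, DESeq2 1.42.0 size factors, the authors' factor, other fold limits, filters and lengths. The quasi-likelihood test planned for libraries was not run, because the values are pooled.

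Coordinates and exon lengths came from GENCODE M21 (GRCm38), upstream sequences from RefSeq (GRCm38.p6); the planned protein sequences were not used here. All carriers were to be named, but 1 is not reported here and is left out of the plots that name carriers; of each other list, the 2 largest called ratios each way with at least 100 reads in a pool, and further genes were named after their values were seen. Slc25a31 and Slc25a41, with few reads, were left out of group shares, and the group of Slc25a1, Slc25a10 and Slc25a11 was added. Members and lists were chosen with earlier results of these data known.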

Additional observations from a re-analysis of the deposited data

How the results depend on the processing

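No paired analysis was possible because there is 1 value per gene and group, and for the same reason no library could be left out. Carriers called higher numbered 9, and 16 with the authors' library factor, 15 at a 1.5-fold limit, 4 at a 3-fold limit and 5 when limited to carriers averaging 5 CPM or more. Carriers called lower numbered 10, and 6 with the authors' factor and 4 at a 3-fold limit. The median log2 ratio of 0.27 became 0.46 with library totals and 0.71 with the authors' factor, by construction of the factor. With DESeq2 size factors all 43 ratios stayed within their counting intervals. No called carrier could change sign under the scalings tried, because a call needed 2-fold and the largest shift in log2 ratio was 0.44. Carriers at a level of 20 or more in diffDC numbered 7, but 11 with the longest transcript as length and 12 with the listed length, chosen after seeing the data. Of the 10 highest carriers in maDC, 8 and 7 were also among the 10 highest with these lengths. Depth limits Slc25a18, Slc25a31 and Slc25a41, with under 20 reads in each pool.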

Other observations

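Some carrier genes lie side by side, and their ratios are given as a description. Slc25a23, 16.5-fold higher, lies on chromosome 17 next to Slc25a41 (57032773 to 57041654, GRCm38). Slc25a41 had 3 and 5 reads and a log2 interval from -2.19 to 2.86, too wide for a comparison. On chromosome 12, Slc25a29, 5.58-fold lower, is followed by Slc25a47 (108836046 to 108856815), which had 38 and 94 reads and a log2 ratio of 0.74. On chromosome X, Slc25a43, 2.52-fold higher, is followed by Slc25a5 (36795651 to 36798807) with a log2 ratio of 0.31. Differences between these neighbours were not tested.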
